A study of Vitis vinifera with 23 samples.

Results

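The genes described here are those whose transcripts increased most steeply at véraison in shaded Sauvignon blanc berries. They were chosen on the control berries alone. On the scale log2(FPKM + 0.1), where FPKM is the number of fragments scaled to transcript length and library size, the mean of the EL34 control samples had to exceed the mean of the EL33 control samples by at least 4, and every EL34 control sample had to reach 5 FPKM. The rule found 171 of the 29970 genes measured, and all 171 passed, as the rule ensures, the low-value filter for testing (1 FPKM or more as the mean of any group), which kept 20205 genes. The control rise that chose them had a median of 4.86 log2 units and ran from 4.01 to 16.4, and it is given as a description only.

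The samples were whole grape berries without seeds, from 1 Vitis vinifera cultivar, frozen in the vineyard. Exposed berries came from vine panels whose leaves and lateral shoots had been removed in the bunch zone, and control berries from panels left shaded. Both were collected as pea-sized green berries (EL31), before véraison (EL33), at véraison (labelled EL34) and when ripe (EL38), with 3 samples in each of 7 groups and 2 in the EL38 control group, 23 in all. The methods describe the samples as biological replicates drawn from different vine panels, and the third EL38 control sample was not analysed here. The paper treated 1 EL38 sample as an outlier and left it out, because its transcriptome correlated with EL33 samples rather than with the other EL38 samples.

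Véraison is the point at which a grape berry stops being a hard, acidic, green fruit and begins to soften, take up sugar and build up aroma compounds. Softening depends on enzymes that loosen and cut the cell wall, such as expansins, xyloglucan endotransglucosylases, polygalacturonases and pectate lyases. Ripening berries also accumulate very large amounts of a few pathogenesis-related proteins, above all thaumatin-like proteins and class IV chitinases, and abscisic acid is a main hormonal signal for the onset of ripening.

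The 171 genes included members of these families. Names were available for 107 of them, 28 were listed without a known function, and 36 were absent from the annotation tables used. Fixed lists drawn from those names held 15 cell wall genes, 14 pathogenesis-related or defence genes, 11 transcription factors, 9 hormone genes, 6 transporters, 5 genes of terpene, carotenoid and aroma metabolism, 4 lipid genes and 4 phenylpropanoid genes. Of 8 markers of ripening berries written down for checking the samples, 5 were among the 171, whereas none of the 26 markers of green tissue was. Of 17 seed markers 3 were members, among them 2 of the 6 oleosins on that list (Vv02s0234g00110 and Vv14s0066g00700), proteins that coat oil bodies and are best known from seeds. The summed seed markers at EL34 were 685, 812 and 757 FPKM in exposed berries, against 614, 609.7 and 648 FPKM in control berries, although the berries were sampled without seeds. The seed markers that were not members summed to 158, 446 and 209 FPKM in exposed berries, against 142, 148 and 162.9 FPKM in control berries.

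Many members lay beside one another in the gene numbering. There were 16 runs of adjacent members (identifier steps of at most 50), holding 41 genes. The longest held 5 genes each, namely the thaumatin and osmotin genes Vv02s0025g04290 to Vv02s0025g04340 and a run of mostly unannotated genes, Vv05s0049g00740 to Vv05s0049g00840. The 4 MybA genes Vv02s0033g00380 to Vv02s0033g00450 and the 3 class IV chitinases Vv05s0094g00330 to Vv05s0094g00350 followed. Where such neighbours are near-identical copies, fragments may have been shared out between them uncertainly, so the level of a single copy is less certain than that of its run.

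The exposed EL33 samples did not form a homogeneous group, and every result that involves them has to be read with this in view. The median of the 171 genes was 3.93 in exposed sample 1, 0.71 in sample 2 and 3.61 in sample 3 on the log2(FPKM + 0.1) scale, against 1.15, 1.34 and 1.12 in the EL33 control samples. Samples 1 and 3 therefore stood far above all controls and sample 2 below them. At the other stages the samples of a treatment lay closer together. The medians were 1.04, 0.84 and 1.06 in exposed and 1.16, 0.80 and 0.96 in control berries at EL31, 6.60, 6.20 and 6.54 in exposed and 6.45, 6.64 and 6.69 in control berries at EL34, and 5.91, 5.98 and 5.79 in exposed and 6.14 and 6.15 in control berries at EL38. Relative depth, read from the steps between low FPKM values, ranged from 0.646 in EL34 exposed sample 1 to 2.42 in EL33 control sample 2, and EL33 exposed samples 1, 2 and 3 had 1.31, 0.927 and 1.43.

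**Figure D1:**
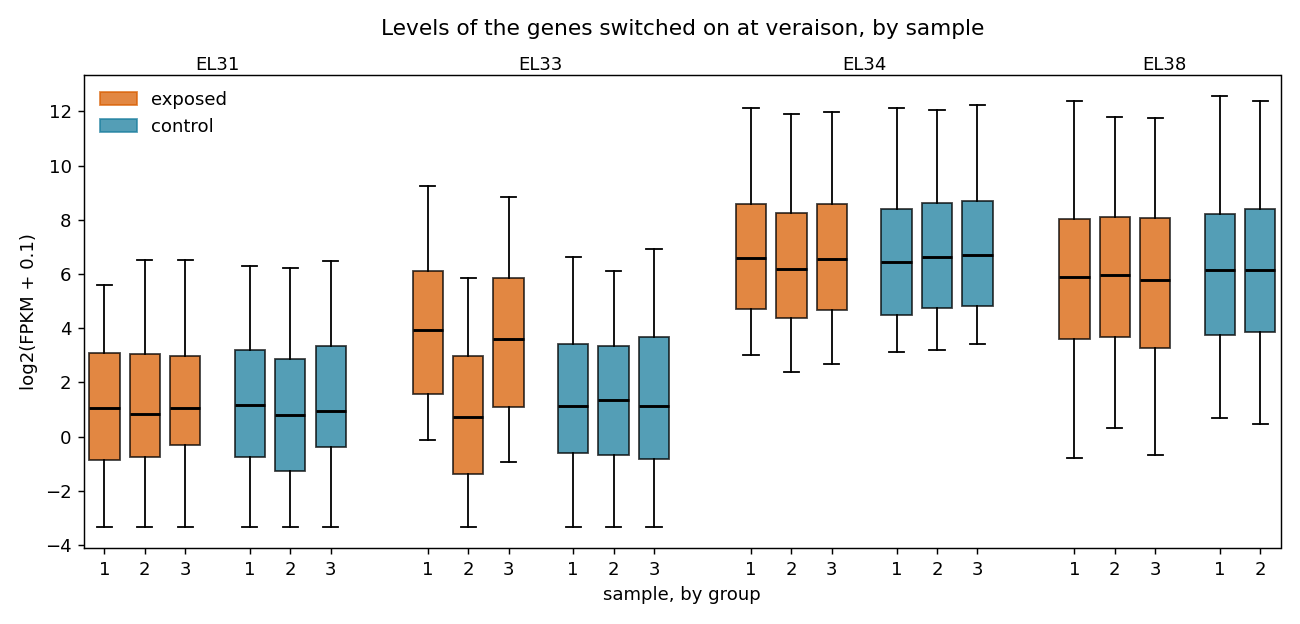
Level of the 171 genes in each of the 23 samples, log2(FPKM + 0.1), exposed left of control at each stage; the box spans the quartiles, the line is the median and the whiskers run from the 5th to the 95th percentile of genes. At EL33 exposed samples 1 and 3 have medians of 3.93 and 3.61, and every other EL33 sample lies between 0.71 and 1.34.

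The first question was whether the genes chosen in shaded berries also rose at véraison in exposed berries, whose samples the rule did not use. They did. In limma's moderated test over all 20205 genes, 165 of the 171 were raised at EL34 relative to EL33 in exposed berries (Benjamini-Hochberg adjusted p of at most 0.05) and none was lowered, where 21.4% of all tested genes were raised and 21% lowered. At an unadjusted p of 0.05 the counts were 167 raised and 0 lowered, beside 24.8% and 24.0% of all tested genes. With a term for the 2 ranges into which the labels' sample numbers fall 117 of the 165 were called, and with the 2 compared groups alone 112. The median log2 difference was 3.63, with quartiles of 2.998 and 4.72, and 170 of 171 values were positive.

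The rise in exposed berries depended strongly on which EL33 sample it was measured from. From sample 2 to the mean of the EL34 exposed samples the median difference was 5.51 log2 units, and 140 genes gained 4 units or more. From samples 1 and 3 it was 2.69 and 2.91, and 20 and 39 genes gained as much. Without sample 2 the test left 17 members uncalled, and without samples 1 and 3 it left 4. Applied to the exposed group means, the rule found 52 genes, of which 40 were also among the 171.

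**Figure D2:**
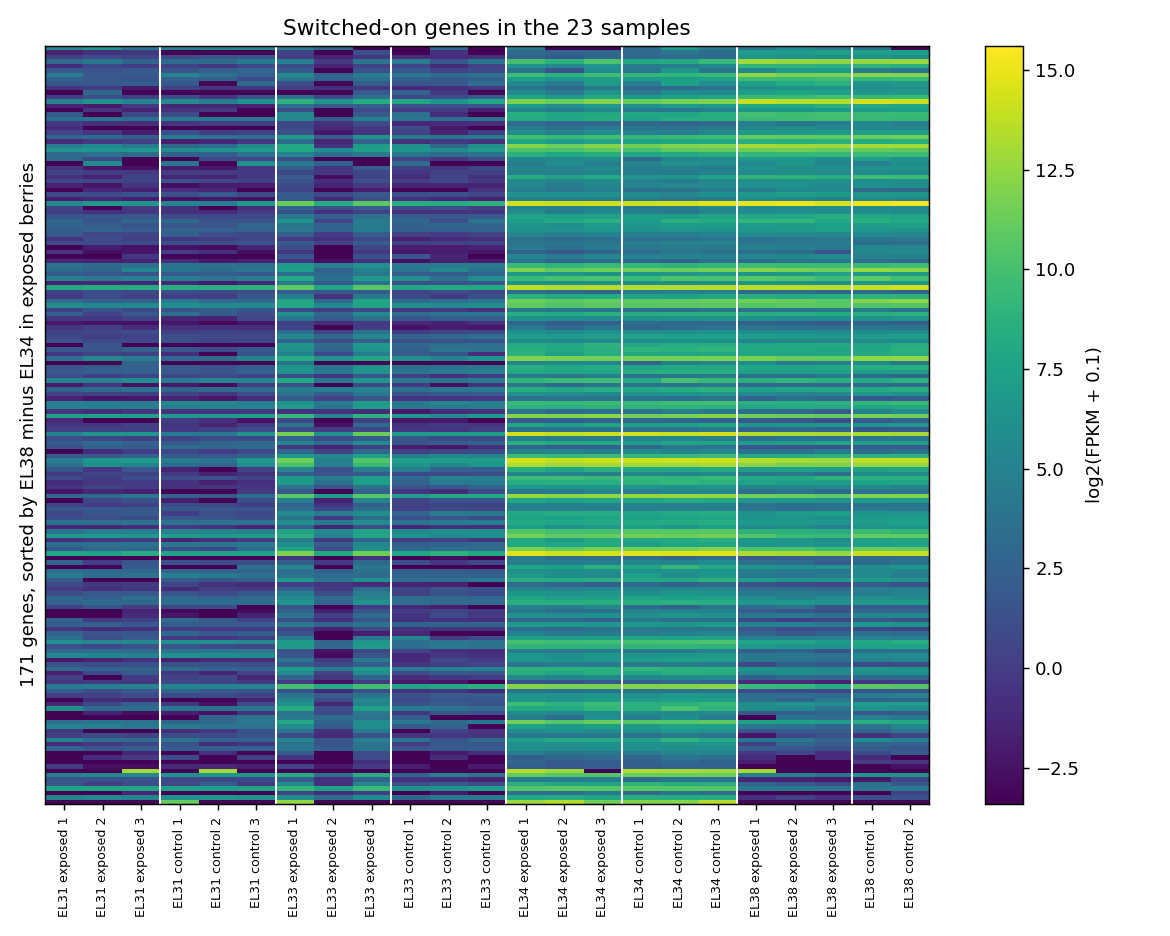
Levels of the 171 genes (one line each) in the 23 samples, log2(FPKM + 0.1) by colour, exposed left of control at each stage, with genes sorted by their difference EL38 minus EL34 in exposed berries. EL33 exposed samples 1 and 3 are lighter than sample 2 and the controls over most genes, and the EL34 columns are bright in all 6 samples.

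Cell wall genes made up the largest functional group. All 15 were raised from EL33 to EL34 in exposed berries, while over the whole cell wall list of 88 annotated genes 54 were raised and 21 lowered. The annotation tables cover genes that the study itself selected on these samples, so such counts are not independent evidence of a direction. XTH32 (Vv06s0061g00550), a xyloglucan endotransglucosylase/hydrolase that cuts and rejoins wall hemicellulose, had 8.78, 9.64 and 19.1 FPKM in exposed and 5.78, 4.34 and 12.3 FPKM in control berries at EL31. At EL33 it had 1691, 141 and 1515 FPKM in exposed berries, against 128, 279 and 287 FPKM in controls. At EL34 the values were 6228, 5092 and 5787 FPKM in exposed and 6104, 6179 and 5937 FPKM in control berries. Exposed sample 2 at EL33 thus lay among the controls, the other exposed samples were far above them, and at véraison the groups came together. The exposed rise was 2.995 ± 0.67 (log2 difference ± SE, adjusted p = 0.00142) by limma.

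EXPA8 (Vv13s0067g02930), an expansin that loosens walls without cutting them, behaved similarly at EL33, with 1036, 296 and 917 FPKM in exposed and 183, 285 and 361.8 FPKM in control berries. It had 4402, 3459 and 3305 FPKM in exposed and 4425, 4213 and 4798 FPKM in control berries at EL34. The most abundant member of the list, Vv16s0022g00960, is annotated as an invertase or pectin methylesterase inhibitor, a small protein family that restrains either enzyme. It had 1771, 207 and 1518 FPKM in exposed berries at EL33, against 233, 282 and 276 FPKM in controls. At EL34 its values were 13866, 9857 and 11857 FPKM in exposed and 10251, 10502 and 12119.5 FPKM in control berries. A second gene of the same annotation, Vv02s0012g00500, gained 4.63 ± 0.78 (log2 difference ± SE, adjusted p = 0.000117) in exposed berries, and these 2 inhibitors were the only members on the sugar and starch list of 49 genes.

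Transport across membranes was represented by 6 genes, all raised from EL33 to EL34 in exposed berries, where 52 of the 120 transporter genes tested were raised and 50 lowered. The aquaporin TIP1;3 (Vv13s0019g00330), a water channel of the vacuolar membrane, was present early, with 209, 227 and 229 FPKM in exposed and 178, 168 and 204 FPKM in control berries at EL31. At EL33 all exposed values, 580.0, 196 and 717 FPKM, lay above the control values of 76.8, 74.04 and 122 FPKM. At véraison it had 1488, 1701 and 1526 FPKM in exposed and 1586, 1544 and 1503 FPKM in control berries. The potassium transporter Vv17s0000g01930 had 155, 24.9 and 121 FPKM in exposed berries at EL33, against 22.7, 30.2 and 34.2 FPKM in controls, and 484, 432 and 378 FPKM in exposed against 549, 459 and 402 FPKM in control berries at EL34.

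Pathogenesis-related genes were among the most abundant members at véraison. The most abundant member at véraison was grip22 (Vv06s0004g02560), a kiwellin-type ripening-related protein, with 27272, 20293 and 23964 FPKM in exposed and 27476, 26094 and 27643 FPKM in control berries. At EL33 it had 3789.5, 281 and 2730.2 FPKM in exposed berries, against 231, 489 and 291 FPKM in controls. The thaumatin-like protein VVTL1 (Vv02s0025g04330), a major protein of ripe grapes and of wine haze, had 3096, 80.7 and 2301 FPKM in exposed and 133, 148 and 146 FPKM in control berries at EL33. At véraison it had 21211, 15102 and 18932 FPKM in exposed and 20276, 16491 and 20513 FPKM in control berries. The class IV chitinase Vv05s0094g00340, an enzyme that degrades fungal walls, showed the widest split of these 3 genes at EL33, with 2773, 27.8 and 1442 FPKM in exposed berries and 152.7, 144 and 138 FPKM in controls.

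All 14 pathogenesis-related members were raised from EL33 to EL34 in exposed berries, among 46 raised and 38 lowered over the 129 genes of that list. The differences were 4.05 ± 0.62 (adjusted p = 4.84e-05) log2 units for grip22, 4.45 ± 0.93 (adjusted p = 0.000814) for VVTL1 and 5.22 ± 1.15 (adjusted p = 0.0013) for the chitinase in limma (log2 difference ± SE). The SE was largest for the chitinase, whose EL33 exposed samples differed most among these 3 genes. A gene without a known function, Vv05s0049g00760, was also among the 5 most abundant members, with 19394, 17087 and 19804 FPKM in exposed and 19518, 19871 and 28726 FPKM in control berries at EL34. In whole-berry RNA, more cells of a type and more transcript per cell cannot be told apart, for these genes as for all others here.

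Hormone genes included 9 members, all raised from EL33 to EL34 in exposed berries, whereas 43 of the 128 genes of the hormone list were raised and 62 lowered. The 9-cis-epoxycarotenoid dioxygenase Vv02s0087g00930, an enzyme of the committed step towards abscisic acid, was near the detection limit at EL31, with 0.257, 0.298 and 0.312 FPKM in exposed and 0.304, 0.139 and 0.329 FPKM in control berries. At EL33 it had 18.7, 3.81 and 13.1 FPKM in exposed berries, against 1.98, 2.48 and 3.13 FPKM in controls, so that all 3 exposed samples lay above the controls. At EL34 it had 78.7, 70.6 and 72.05 FPKM in exposed and 66.8, 64.02 and 60.2 FPKM in control berries, again without overlap. It was already raised in exposed berries between EL31 and EL33, by 4.67 ± 0.39 (log2 difference ± SE, adjusted p = 6.66e-08), and it was raised further to EL34, by 2.90 ± 0.39 (log2 difference ± SE, adjusted p = 1.26e-05).

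The other 2 named hormone genes act in gibberellin biology. GASA4 (Vv14s0108g00740), a small gibberellin-responsive peptide, had 131, 6.72 and 84.5 FPKM in exposed and 11.4, 14.5 and 13.2 FPKM in control berries at EL33. It had 1003, 824 and 925 FPKM in exposed and 1067, 1078 and 1288 FPKM in control berries at EL34. Gibberellin 20 oxidase 2 (Vv03s0063g01290), an enzyme of gibberellin synthesis, had 71.02, 0.287 and 34.0021 FPKM in exposed and 2.70, 4.07 and 2.68 FPKM in control berries at EL33, and 832, 476 and 789 FPKM in exposed and 449, 453 and 635 FPKM in control berries at EL34. Over the 9 hormone members, EL33 exposed samples 1, 2 and 3 lay 3.25, 0.05 and 2.70 log2 units above the control mean in the median.

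All 11 transcription factors among the members were raised from EL33 to EL34 in exposed berries, against 128 raised and 80 lowered over the 269 listed. They included 4 MybA genes, of the family known for switching on anthocyanin synthesis in coloured grapes. MybA3 (Vv02s0033g00450) had 54.9, 1.15 and 57.7 FPKM in exposed and 1.81, 3.93 and 3.18 FPKM in control berries at EL33. At véraison it had 358, 245 and 394 FPKM in exposed and 248, 366 and 339 FPKM in control berries. The gene annotated VVMYBA1 (Vv02s0033g00380) was listed at 0 in all 3 EL33 controls, and had 41.5, 0 and 22.8 FPKM in exposed berries. At EL34 it had 223, 165 and 437 FPKM in exposed and 220.3, 613 and 279.7 FPKM in control berries, and the exposed rise of 5.79 ± 1.97 (adjusted p = 0.0251) log2 units carries a large error. The remaining factors were mostly NAC genes and single members of other families, such as the lateral organ boundaries gene Vv06s0004g07790.

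The smaller groups rose at véraison in exposed berries too, with every member of the lipid, aroma, phenylpropanoid, stress, kinase, protease and cytochrome lists called. As 165 of the 171 genes were called, this is no trait of these lists. In the same order, the whole lists held 78, 43, 125, 157, 315, 213 and 31 tested genes. Of these 34, 19, 41, 48, 115, 102 and 6 were raised and 25, 19, 53, 56, 142, 69 and 21 lowered. The oleosin Vv02s0234g00110 gained 4.53 ± 0.95 (log2 difference ± SE, adjusted p = 0.00091), and the lipid transfer protein gene Vv03s0017g02200, at under 10 FPKM throughout, gained 3.29 ± 0.53 (adjusted p = 7.45e-05). The short-chain alcohol dehydrogenase Vv08s0040g01200 had 9.67, 0.273 and 6.05 FPKM in exposed and 0.490, 0.898 and 0.512 FPKM in control berries at EL33, and 234, 133 and 209 FPKM in exposed and 201, 226 and 232 FPKM in control berries at EL34. It gained 6.05 ± 0.78 (log2 difference ± SE, adjusted p = 8.65e-06) in exposed berries. CIPK7 (Vv05s0020g04570), a kinase that acts with calcium sensors, gained 3.30 ± 0.32 (adjusted p = 4.81e-07) log2 units and the phosphatidylinositol kinase Vv02s0025g01610 gained 2.68 ± 0.29 (adjusted p = 1.58e-06). Proline iminopeptidase (Vv03s0088g01180), which removes proline from peptide ends, gained 3.34 ± 0.52 (adjusted p = 5.83e-05), the nucleobase-ascorbate transporter NAT2 (Vv10s0003g01460) gained 3.59 ± 0.52 (adjusted p = 2.59e-05), and the late embryogenesis protein gene Vv07s0151g00840 gained 2.49 ± 0.39 (adjusted p = 5.62e-05), with the limma adjusted p in parentheses. The cytochrome CYP79A2 (Vv06s0009g03120) was listed at 0 in EL33 exposed sample 2, had 2.10 and 1.37 FPKM in samples 1 and 3, and reached 22.6, 12.8 and 22.3 FPKM in exposed and 17.3, 20.9 and 17.5 FPKM in control berries at EL34.

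Laccase and a cinnamyl alcohol dehydrogenase stood for the phenylpropanoid group, whose enzymes make lignin and flavonoid precursors. Laccase (Vv18s0164g00100) had 43.4, 39.5 and 30.4 FPKM in exposed and 80.8, 63.9 and 51.7 FPKM in control berries at EL31, then 2.99, 0.0389 and 2.81 FPKM in exposed and 0.313, 0.664 and 0.466 FPKM in control berries at EL33. It was thus not silent before véraison but fell from EL31 to EL33 in exposed berries, with a difference of -5.12 ± 0.75 (log2 difference ± SE, adjusted p = 3.79e-05). It reached 97.6, 67.4 and 106 FPKM in exposed berries at EL34, against 87.4, 94.9 and 111 FPKM in controls. The cinnamyl alcohol dehydrogenase Vv00s0615g00010, which acts on lignin alcohols, had 1.21, 0 and 0.876 FPKM in exposed and 0.0779, 0.179 and 0.125 FPKM in control berries at EL33, and 18.8, 8.58 and 16.1 FPKM in exposed and 6.56, 9.51 and 12.8 FPKM in control berries at EL34.

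A few members did not pass the test in exposed berries. The 6 that limma did not call from EL33 to EL34 were Vv00s0199g00050, Vv00s0301g00070, Vv08s0007g08010, Vv08s0007g08020, Vv11s0037g00910 and Vv19s0014g03390, none with a known function. Vv11s0037g00910 had 23.2, 0 and 0 FPKM at EL34 and 26.3, 8.89 and 0 FPKM at EL33 in exposed berries, so the EL34 values were no higher. The cystatin gene Vv00s0187g00120, coding for an inhibitor of cysteine proteases, was called with the small difference of 1.198 ± 0.24 (log2 difference ± SE, adjusted p = 0.000497). It had 9.90, 8.46 and 6.53 FPKM in exposed berries at EL34, against 24.9, 28.6 and 27.7 FPKM in controls, without overlap, and its EL34 control values helped to choose it.

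The EL33 difference between exposed and control berries uses the control samples of the rule, so it is described without a test. In the group means 94.7% of the 171 genes were higher in exposed berries and 4.68% lower, with a median log2 difference of 1.32 and quartiles of 0.92 and 1.82, beside a median of -0.02 over all tested genes. All 3 exposed samples lay above all controls for 25 of the 171 genes, a larger share than the 8.96% of all tested genes. They lay below all controls for none, beside 12.1% of all tested genes. Sample 2 decided this count. Exposed sample 1 exceeded every control for 95.3% of the members, beside 35.4% of all tested genes, and sample 3 for 87.1%, beside 22.8%. Sample 2 did so for 15.8%, beside 25.3%, and lay below every control for 39.8%, beside 34.2%.

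Set against the mean of the EL33 controls, exposed sample 1 was higher for 97.7% of the members with a median of 2.396 log2 units, and sample 3 was higher for 95.3% with a median of 2.08. Sample 2 was higher for 33.3% and lower for 63.7%, with a median of -0.29. The median difference over all tested genes was 0.05, -0.06 and -0.06 for samples 1, 2 and 3. Without sample 2 the median exposure difference at EL33 was 2.15, and without samples 1 and 3 it was -0.29.

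Among the exposed samples themselves, a comparison in which the rule used nothing, samples 1 and 3 both exceeded sample 2 by at least 2 log2 units for 101 of the 171 genes (59.1%), beside 1.76% of all tested genes. A gap of at least 1 was found for 143 genes, beside 4.12%, and both samples were above sample 2 at all for 160 genes, beside 37.4%. The 101 genes made up 28.4% of the 356 tested genes with the larger gap. Samples 1 and 3 differed from each other by 0.28 in the median. These are differences between single samples of a group and carry no test.

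The 11 exceptions included genes near the detection limit and 2 annotated genes with steady values. Flavanone 3-hydroxylase (Vv16s0098g00860) had 0.503, 0.511 and 0.427 FPKM in exposed berries and the NHL repeat gene Vv14s0066g01600 had 24.5, 27.7 and 33.3 FPKM. The second was chosen for mention after its values were seen.

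**Figure D3:**
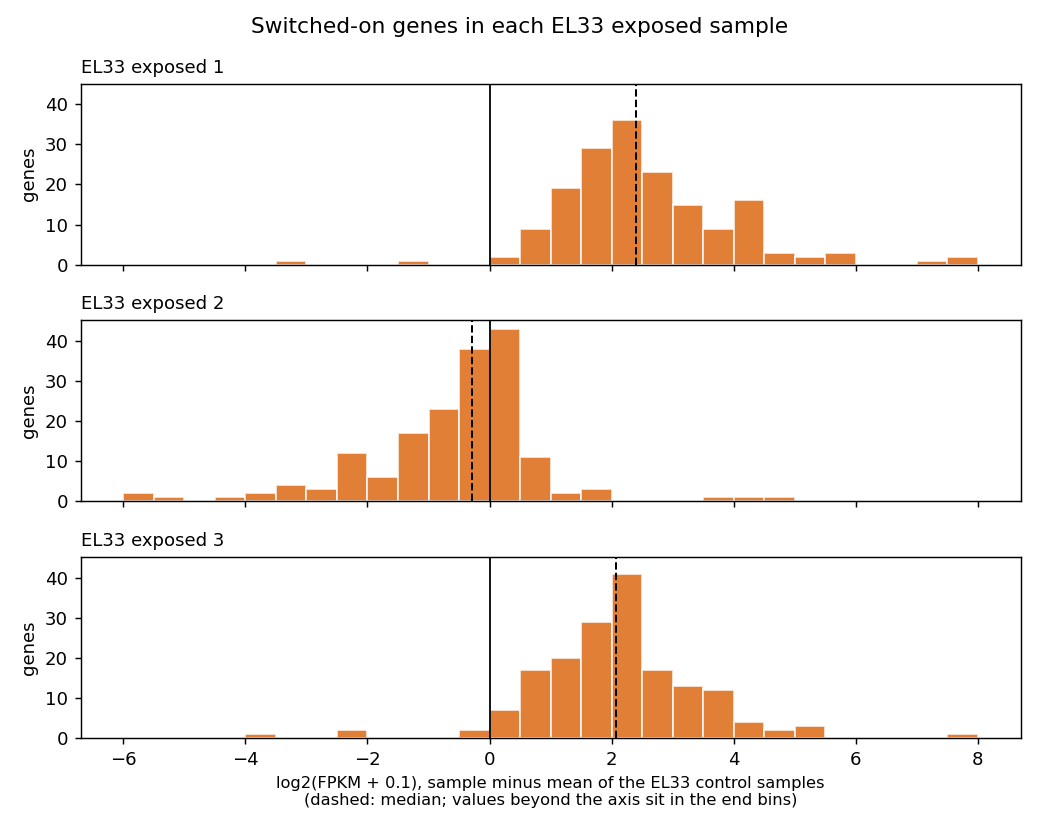
Difference of each EL33 exposed sample from the mean of the EL33 controls over the 171 genes, in log2 units across and number of genes upwards, one panel per sample, with the median dashed and values beyond the axis in the end bins. Samples 1 and 3 centre on 2.396 and 2.08, and sample 2 centres on -0.29.

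Marker levels in the same samples are given beside this split, and their part in it was not tested. The summed ripening markers, of which 5 of 8 are themselves members, were 9892, 504 and 6593 FPKM in EL33 exposed samples 1, 2 and 3, against 612, 911 and 665 FPKM in EL33 controls. Most of each sum came from the 5 members. The other 3 ripening markers summed to 85.7, 109.6 and 89.1 FPKM in exposed samples 1, 2 and 3, without that split. They summed to 80.3, 77.3 and 77.7 FPKM in EL33 controls. The median of the 26 green tissue markers was 9.15, 9.62 and 9.24 on the log2(FPKM + 0.1) scale in exposed samples 1, 2 and 3, against 8.65, 8.12 and 8.62 in controls, so sample 2 was the highest. The summed seed markers were 283, 222 and 225 FPKM in exposed berries, against 445, 147 and 172 FPKM in controls, and in sum did not separate sample 2. The 3 of them that are members summed to 60.9, 2.86 and 43.7 FPKM in exposed samples, against 60.9, 6.99 and 6.78 FPKM in controls. The others summed to 222, 219 and 181 FPKM in exposed samples, against 384, 140 and 165 FPKM in controls. The 79 genes that met the mirrored rule, switched off from EL33 to EL34 in controls, had medians of 4.18, 4.08 and 4.37 in exposed samples, against 5.02, 4.20 and 4.90 in controls. Gene by gene they lay lower in samples 1 and 3 than in sample 2, by a median of -0.52 log2 units for sample 1 (58 lower, 19 higher) and -0.41 for sample 3 (59 lower, 18 higher), and samples 1 and 3 differed by a median of -0.02. Between control samples 1 and 2 the median difference was 0.49 (68 higher, 11 lower).

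At véraison itself the median difference between treatments was small. In the EL34 group means 70 genes were higher and 101 lower in exposed berries, with a median log2 difference of -0.06. All exposed samples lay above the controls for 10 of the 171 genes, a smaller share than the 9.16% of all tested genes. They lay below the controls for 32, a larger share than the 9.88% of all tested genes. Exposed samples 1, 2 and 3 differed from the control mean by 0.08, -0.33 and 0.02 in the median. Sample 2 was again the lowest, with 128 genes below the control mean. Its sample number ends in the same digits as that of EL33 exposed sample 2. The control samples helped to choose the genes, so these values are a description. The green tissue marker median at EL34 was 7.07, 7.81 and 6.82 in exposed berries, against 6.61, 6.28 and 6.62 in controls, and sample 2 was highest in it.

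In pea-sized berries few members passed the test for exposure. At EL31, whose samples the rule did not use, 81 genes were higher and 88 lower in exposed berries, with a median of -0.03, the same as over all tested genes, and 8 had all exposed samples above the controls and 17 all below, beside 11.3% and 10.2%. A single gene was raised in limma and none lowered, beside 3.8% and 0.881% of all tested genes. At an unadjusted p of 0.05 the counts were 4 and 7 of the 171, beside 8.58% and 5.67% of all tested genes. The gene raised after adjustment was the thaumatin SCUTL1 (Vv04s0023g03540), with 0.808, 1.38 and 1.05 FPKM in exposed and 0.741, 0.249 and 0.537 FPKM in control berries, a log2 difference of 1.02 ± 0.28 (adjusted p = 0.0476). The call rests on values around 1 FPKM. It was lost in 26 of 35 other fits, the replicate block, the fit of the EL31 groups only and the term for the sample number ranges among them, with adjusted p from 0.00422 to 0.287.

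**Figure D4:**
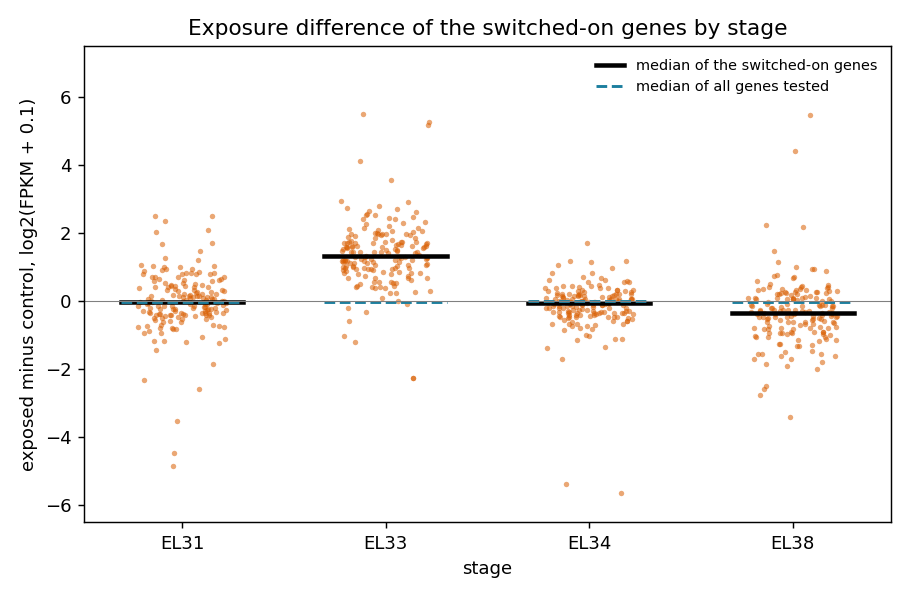
Exposed minus control log2 difference for each of the 171 genes (points) at the 4 stages, with their median as a black line and that of all tested genes dashed. The median of the 171 genes is -0.03 at EL31, 1.32 at EL33, -0.06 at EL34 and -0.35 at EL38.

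In ripe berries the members leaned towards lower levels under exposure. At EL38, also outside the rule, 55 genes were higher and 115 lower in exposed berries, with a median log2 difference of -0.35 beside -0.03 over all tested genes. The 3 exposed samples differed from the control mean by -0.26, -0.29 and -0.47 log2 units in the median, so all were lower. All exposed samples were below both controls for 79 genes and above both for 20, beside 18.4% and 12.6% of all tested genes. In limma 6 genes were lowered and none raised, beside 3.26% and 1.52% of all tested genes, so the share of members called (3.51% lowered) was near the background. The spread in this test is shared by all groups and takes in the EL33 exposed split, so the share called depends on that split as well. At an unadjusted p of 0.05, 14 of the 171 were lowered and 4 raised, beside 11.2% and 6.44% of all tested genes. The summed ripening markers in the EL38 samples were 36097, 30105 and 25096 FPKM in exposed berries, against 45494 and 43826 FPKM in controls, nearly all of it from the 5 members. The other 3 ripening markers summed to 68.0, 83.8 and 130 FPKM in exposed berries, against 127 and 132 FPKM in controls. The summed seed markers were 299, 329 and 298 FPKM in exposed berries, against 344 and 366 FPKM in controls, and without the members 128, 123 and 134 FPKM against 119 and 107 FPKM. Their part in the difference was not tested.

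The clearest single case at EL38 was flavanone 3-hydroxylase (Vv16s0098g00860), an early enzyme of flavonoid synthesis that feeds flavonols and tannins. At EL34 it had 14.3, 8.58 and 13.2 FPKM in exposed and 13.6, 23.5 and 18.02 FPKM in control berries. At EL38 it had 10.6, 7.48 and 3.62 FPKM in exposed berries, against 31.3 and 45.8 FPKM in controls. The difference was -2.50 ± 0.40 (log2 difference ± SE, adjusted p = 0.00197).

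Both genes of the thaumatin pair on Vv04s0023 fell with exposure too. The thaumatin Vv04s0023g03550 had 30.7, 29.5 and 17.4 FPKM in exposed and 105 and 84.9 FPKM in control berries at EL38, a difference of -1.91 ± 0.32 (log2 difference ± SE, adjusted p = 0.00265). SCUTL1 (Vv04s0023g03540) had 15.3, 17.7 and 9.84 FPKM in exposed and 52.4 and 47.6 FPKM in control berries, a difference of -1.84 ± 0.32 (log2 difference ± SE, adjusted p = 0.00294). These neighbours may share fragments and are not separate pieces of evidence. The far more abundant VVTL1 had 11284, 8728 and 8763 FPKM in exposed and 9830.0 and 8590.1 FPKM in control berries, and its difference of 0.05 ± 1.03 log2 units did not pass the test.

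EXPA8 had 667, 618 and 334 FPKM in exposed and 1589 and 1431 FPKM in control berries at EL38, a difference of -1.55 ± 0.41 (log2 difference ± SE, adjusted p = 0.0374). The esterase or lipase gene Vv10s0003g04950, named here because it completes the 6, had means of 19.0 FPKM in exposed and 40.0 FPKM in control berries. The last, Vv02s0236g00070, had 0.185, 0 and 0 FPKM in exposed and 0.965 and 0.588 FPKM in control berries, levels at which its difference of -2.59 ± 0.62 (adjusted p = 0.0211) rests on traces. Grip22 had 9629, 9025 and 6339 FPKM in exposed and 15586 and 15328 FPKM in control berries, without overlap, but its difference of -0.91 ± 0.70 log2 units did not pass the test.

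The EL38 count depended on the fit. It was 0 when the fit held only the EL38 groups, and it was 3 without exposed sample 2 or exposed sample 3 of EL38. It was 21 without EL33 exposed sample 2, which leaves the EL38 samples untouched and changes only the shared estimate of the spread. The share of all tested genes called was not counted in these other fits, so their counts are no result about the members. Both EL38 control samples carry numbers from 1 range and 2 of the exposed ones from another, so range and treatment can only partly be told apart. With the range as a term at each stage, the exposure difference at EL38 rests on a single exposed sample against both controls. The count from that fit is therefore not given.

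**Figure D5:**
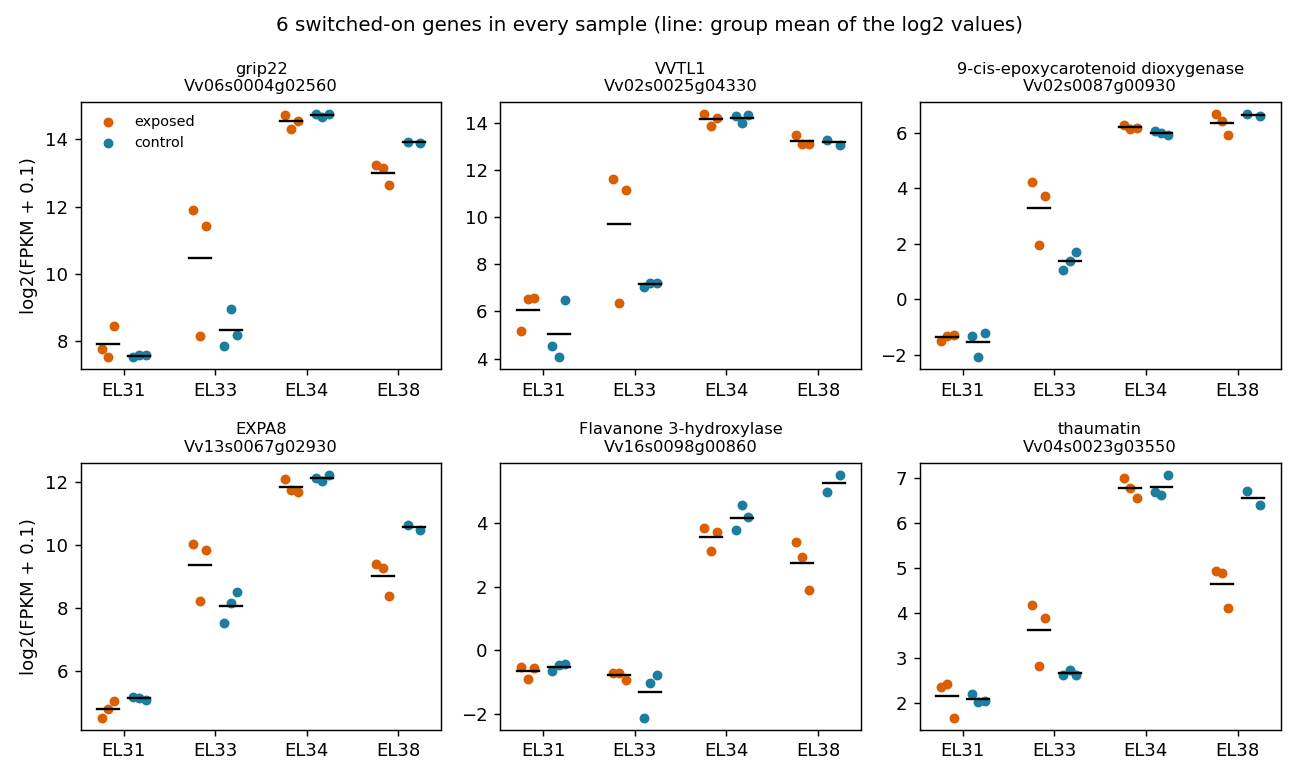
Level of 6 members by stage in exposed and control berries, log2(FPKM + 0.1), with a point for each sample and a line at the group mean of the log2 values: grip22, VVTL1, 9-cis-epoxycarotenoid dioxygenase, EXPA8, flavanone 3-hydroxylase and the thaumatin Vv04s0023g03550. The EL33 exposed points spread widely in 5 of the 6, and the exposed EL38 points of EXPA8, flavanone 3-hydroxylase and the thaumatin lie below both controls.

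The genes parted ways between véraison and ripeness. In exposed berries 13 were raised and 61 lowered from EL34 to EL38 in limma, beside 25.2% and 29.5% of all tested genes, and 97 were not called. The median difference was -0.90. The 61 lowered genes had a median of group means of 11.8 FPKM at EL38 and 71.6 FPKM at EL34 in exposed berries, with a median difference of -2.45. Their control EL38 minus EL34 difference, described because it uses the rule's samples, had a median of -2.13, and 59 of the 61 were lower. The 13 raised genes had medians of 490 FPKM at EL38 and 109 FPKM at EL34 in exposed berries, and all 13 were also higher in controls. Without EL33 exposed sample 2 the calls came to 101, and with the sample number range as a term to 33.

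The lowered members included cell wall and transport genes. The pectate lyase Vv01s0137g00240, which cuts pectin, had 296, 305 and 217 FPKM in exposed and 341, 332 and 339 FPKM in control berries at EL34. It had 0.482, 1.15 and 0.531 FPKM in exposed and 2.03 and 2.53 FPKM in control berries at EL38, a difference of -8.45 ± 0.52 (log2 difference ± SE, adjusted p = 4.66e-10) in exposed berries. TIP1;3 had 17.9, 21.7 and 15.2 FPKM in exposed and 17.5 and 23.2 FPKM in control berries at EL38 and was lowered, with a difference of -6.43 ± 0.32 (adjusted p = 4.01e-11). Both ended below their EL31 levels, in exposed berries with -5.64 ± 0.52 (adjusted p = 2.22e-08) for the pectate lyase and -3.61 ± 0.32 (adjusted p = 1.52e-08) for TIP1;3. Other members were lowered from EL34 to EL38 in exposed berries (log2 difference ± SE, limma). The difference was -2.84 ± 0.37 (adjusted p = 3.85e-06) for EXPA8, -2.33 ± 0.68 (adjusted p = 0.00759) for GASA4 and -2.66 ± 0.45 (adjusted p = 8.51e-05) for the potassium transporter. It was -2.45 ± 0.75 (adjusted p = 0.0102) for laccase and -2.66 ± 1.09 (adjusted p = 0.0471) for MybA3. The unnamed gene Vv07s0005g01700 was listed at 0 in all exposed berries at EL38, against 12.1, 10.5 and 20.4 FPKM in exposed berries at EL34. By list, 6 of the 14 pathogenesis-related members, 5 of the 15 cell wall members and 4 of the 6 transporters were lowered. Of all genes tested on those lists, 44 of 129 pathogenesis-related genes, 32 of 88 cell wall genes and 43 of 120 transporters were lowered, beside 29.5% of all tested genes.

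A smaller set kept climbing. Vv12s0028g00670, without a name in the tables used, had 8.33, 6.28 and 8.11 FPKM in exposed and 8.75, 16.4 and 9.23 FPKM in control berries at EL34. At EL38 it had 154.4, 118 and 181 FPKM in exposed and 159 and 163.6 FPKM in control berries, a difference of 4.29 ± 0.86 (log2 difference ± SE, adjusted p = 0.000381) in exposed berries. The other large rises were Vv09s0002g05590 with 3.74 ± 0.33 (adjusted p = 3.67e-08) and Vv12s0034g01970 with 2.93 ± 0.96 (adjusted p = 0.0155). Vv12s0034g01970 reached 7035, 6207 and 5241 FPKM in exposed and 6279.5 and 6603 FPKM in control berries. Several of the most abundant members did not pass the test from EL34 to EL38, among them the inhibitor Vv16s0022g00960, with 12124, 12578 and 11680.2 FPKM in exposed and 15000.4 and 18724 FPKM in control berries at EL38, and Vv05s0049g00760, with 33154, 35118 and 22610.4 FPKM in exposed and 36444 and 44490.1 FPKM in control berries.

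Most members were far higher in ripe than in pea-sized berries under both treatments. From EL31 to EL38, in groups that the rule did not use, 142 were raised and 4 lowered in exposed berries, with a median log2 difference of 5.09. Of all tested genes, 32.6% were raised and 38.7% lowered. The spread shared in this test does take in the rule's samples. In control berries 142 were raised and 2 lowered, beside 30.8% and 35.8%, with a median of 5.17. Of these, 138 were raised in both. The difference between the treatments in this change was itself tested: it was lower in exposed berries for 4 members and higher for none by limma, beside 2.04% and 0.505% of all tested genes. At an unadjusted p of 0.05 it was lower for 9 and higher for 5, beside 10.3% and 5.59% of all tested genes. The 4 members called after adjustment were flavanone 3-hydroxylase, the thaumatin pair and the esterase described above. The lowered genes in controls were the pectate lyase and TIP1;3, and in exposed berries Vv01s0146g00090 and Vv19s0090g00510 were added. The late embryogenesis gene Vv07s0151g00840 had 5.92, 12.2 and 7.99 FPKM in exposed and 3.40 and 4.10 FPKM in control berries at EL38, without overlap, and its difference of 1.14 ± 0.43 log2 units did not pass the test.

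The step from EL31 to EL33 in exposed berries again carried the split between samples. In limma 78 members were raised and 5 lowered, beside 11.7% and 20.6% of all tested genes, with a median log2 difference of 1.51. The counts turned with the samples used: 131 were called without sample 2, and without samples 1 and 3 the fit gave 32 raised and 32 lowered. XTH32 was raised by 5.91 ± 0.67 (adjusted p = 2.25e-06) and EXPA8 by 4.56 ± 0.37 (adjusted p = 4.32e-08). The 5 lowered members were laccase, Vv02s0154g00300, Vv09s0002g05590, Vv12s0055g00810 and Vv18s0001g13080. In control berries the same step, described only, had a median of 0.27, with 94 genes higher and 75 lower.

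Around the threshold the selection was arbitrary, as for any fixed limit. Just inside it lay the oleosin Vv14s0066g00700 and the potassium transporter Vv17s0000g01930, both at 4.01 in controls, and just outside it galactinol synthase (Vv01s0127g00470) at 3.997 and Vv09s0002g04840 at 3.97. The oleosin had 22.2, 0 and 18.3 FPKM in the EL33 exposed samples and 34.1, 0.996 and 2.07 FPKM in the EL33 controls, so 1 control sample set its place. Galactinol synthase, which makes a precursor of protective sugars, had 148, 32.4 and 77.6 FPKM in exposed and 22.9, 20.2 and 20.3 FPKM in control berries at EL33. Samples 1 and 3 were above sample 2, as in most members, but here sample 2 was also above every control.

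Of the 171, 3 members had values of both 0 and over 50 FPKM within 1 group and are given by library only, since a listed 0 may be a failed estimate. Vv17s0000g09800 was listed at 5733, 0 and 0 FPKM in EL33 exposed berries and at 0 in all 3 EL33 controls. At EL34 it had 6938, 11132 and 2976 FPKM in exposed and 4649.8, 4426 and 11640.3 FPKM in control berries, and it was listed at 0 in all 5 EL38 samples. Vv00s0199g00050 had 12287, 7240.4 and 0 FPKM in exposed and 9752, 8829.7 and 7340.4 FPKM in control berries at EL34 and 0 in all 6 EL33 samples. Vv19s0014g03390 had 0, 58.5 and 0 FPKM in exposed and 14.9, 0 and 83.4 FPKM in control berries at EL31. The largest fitted fall from EL34 to EL38 belonged to the first of these, and no size is given for it.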

How the data were processed

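Berry RNA was sequenced on an Illumina HiSeq 1000 from TruSeq libraries. The authors called bases with CASAVA 1.8.2, aligned reads with TopHat to the V1 12X Pinot noir genome and estimated FPKM with Cufflinks. The deposited values are those FPKM, with no counts, so the absolute depth of each sample is unknown. The paper gives total reads by group only. No column of another sample was present (0 unused).

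Values were tested as log2(FPKM + 0.1) with limma 3.58.1 in R 4.3.3 (8 group means over 23 samples, trended variance, Benjamini-Hochberg adjustment per comparison, adjusted p of at most 0.05) on the 20205 genes whose mean reached 1 FPKM in any group. Tables used pandas 2.3.3 and numpy 2.4.6 and plots matplotlib 3.10.9, under Python 3.11.15, and the fit was tested on simulated data. Differences understate the change of low genes. No comparison with the EL33 or EL34 control groups was tested, although their samples enter the spread shared by all comparisons. Methods for this study describe panels as replicates. The last digits of the sample numbers repeat at every stage within a treatment, and the labels do not say what they mean. If they mark panels, the tests between stages treat repeated samples of a panel as independent, and p-values measure only the spread between samples. Deviations of samples with the same last digits correlated at -0.09 to 0.12 between stages. The stage labelled EL34 is EL35 in the study's text.

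The members and lists were chosen with earlier results of these data known. Genes named are, per list, the 2 members highest at EL34 in exposed berries, the 5 highest members, up to 5 called members each way for exposure at EL31 and EL38, the 3 smallest exposed rises at véraison, the 3 largest called rises and falls to EL38, and 2 genes on either side of the threshold; others were chosen after their values were seen. Annotations and lists come from the study's supplementary tables, which name 4654 genes. Relative depth was estimated from steps between low values (247 of 253 sample pairs).

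Alternatives were other pseudocounts, filters, thresholds and scalings, blocks for sample numbers, fits of the compared groups only, other member rules and leaving out each sample. Their counts of calls are of members only, without the share of all tested genes. No sequence or coordinate was used.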

Additional observations from a re-analysis of the deposited data

Results flagged for a closer look

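The effect of exposure differed between ripe and pea-sized berries for 4 members, by limma's test of the difference itself (exposed minus control at EL38, less the same at EL31). The difference was -2.86 ± 0.42 log2 units (SE, adjusted p = 0.00237) for the thaumatin SCUTL1 (Vv04s0023g03540), -1.97 ± 0.43 (adjusted p = 0.0246) for its neighbour Vv04s0023g03550, -2.35 ± 0.54 (adjusted p = 0.0295) for flavanone 3-hydroxylase (Vv16s0098g00860) and -1.54 ± 0.36 (adjusted p = 0.0329) for the esterase Vv10s0003g04950. All 4 are lower, which is 2.34% of the members beside 2.04% of all tested genes, so the share is near the background. The spread behind these calls also takes in the EL33 exposed split. Leaving out each of the 23 samples in turn, the count ran from 1 to 5. The fit with the sample number range as a term leaves a single EL38 exposed sample for this difference, so its count is not given. With only the compared groups 3 members were called, of which 1 (SCUTL1) was among these 4.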

How the results depend on the processing

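The precision is limited by groups of 3 samples, 2 in the EL38 controls, by FPKM without counts, and by the split of the EL33 exposed samples, which enters the spread shared by all comparisons. For the named genes, 156 calls were refitted 4212 times in all. These refits used the other pseudocounts, median-of-ratios scaling, the replicate block and each sample left out. The range block and the fits of the compared groups only were not among them. The call held in 4072 fits and was lost in 140, spread over 22 calls, and none was reversed. The called count for exposure at EL31 (1) became 0 at an adjusted p of 0.01, without a low-value filter, without a variance trend and with the sample number range as a block, 2 with a filter on the overall mean and with median-of-ratios scaling (with or without the members), 3 with the compared groups only and 4 without EL33 exposed samples 1 and 3. That for exposure at EL38 (6) became 3 at an adjusted p of 0.01, 10 and 14 with pseudocounts of 0.5 and 1, 18 without EL33 exposed samples 1 and 3, and 0 with the range block or the compared groups only. The call count from EL34 to EL38 in exposed berries (74) was 33 with the range block and 114 with the compared groups only, and from EL31 to EL33 (83) 37 with the compared groups only. The 4 calls of the EL38 less EL31 difference became 1 at 0.01. For comparisons with EL38 exposed berries no count is given with the range block, which leaves them a single EL38 exposed sample. The number of members was 104 with a pseudocount of 1, 312 and 77 with differences of at least 3 and 5, and 52 on the exposed samples. The median exposure effect was 0.062 (quantile normalization) and 0.20 (members by both rules) at EL31, -0.29 without exposed samples 1 and 3 at EL33, 0.35 (rule on exposed samples) and 0.28 (both rules) at EL34, and -0.23 (quantile normalization) and -0.12 (both rules) at EL38. The alternatives without EL33 exposed samples 1 and 3 and without the members in the scaling were chosen after seeing the data.

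Leaving out each sample in turn, calls ranged from 0 to 5 for exposure at EL31, 3 to 21 at EL38, 62 to 101 from EL34 to EL38 and 62 to 131 from EL31 to EL33 in exposed berries, and 1 to 5 for the EL38 less EL31 difference, and the EL33 median from 0.86 to 2.15. The other counts stayed within 1.5 times their value.

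Samples share replicate numbers across treatments, but the deviations of same-numbered samples correlated at only -0.03 to 0.15 (11 pairs), so the numbers were not taken as pairing. With the replicate block the calls were 1 for exposure at EL31 (another gene, as SCUTL1 was lost), 8 at EL38, 165 from EL33 to EL34, 78 from EL34 to EL38 and 86 from EL31 to EL33 in exposed berries, 146 in control and 145 in exposed berries from EL31 to EL38, and 4 for the difference.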
